A study of Mus musculus with 2 samples.

Results

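The genes described here are 10 transcription factors of the AP-1 group and its close relatives, namely the FOS family (Fos, Fosb, Fosl1 and Fosl2), the JUN family (Jun, Junb and Jund), Batf, Batf3 and Atf3. They were taken by symbol from the annotation of the array, which pairs them with 11 probes on 29 spots. The arrays carried probes of 20738 named genes in all. The library labelled Gfi1 knock out was set against the library labelled Gfi1 wild type, with 1 array each. Gfi1 encodes a zinc-finger repressor of transcription. Both libraries came from naive CD4 T cells of C57BL/6 spleen, purified with a CD4+CD62L+ isolation kit and cultured in the same way. For 2 days the cells received immobilised antibody to TCR-β (3 µg/ml), antibody to CD28 (1 µg/ml) and IL-2 (10 ng/ml). Antibodies to IL-4 and to IFN-γ (5 µg/ml each) were also present. The age and number of the mice, and how the Gfi1 allele was made, are not given in the sources used here.

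AP-1 is a family of dimers of basic leucine zipper proteins. FOS proteins cannot pair with themselves and bind DNA together with a JUN protein, whereas JUN proteins can also pair with each other. In T cells, signals from the antigen receptor and CD28 reach these factors through MAP kinases, and AP-1 then acts with NFAT at cytokine genes. BATF and BATF3 lack the activation domain of FOS, pair with JUN proteins and bind composite sites with IRF4 or IRF8. ATF3 is a stress-inducible relative that binds cyclic AMP response elements, often as a repressor.

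Several of these genes are known to be controlled through AP-1 and CRE-type elements close to their own start sites, and 5 promoter windows are shown for that reason. They belong to the 4 genes that were higher by 2-fold or more under the knock out label and to Batf, which was not. Each window runs from 250 bases before to 50 bases after the annotated start, read 5′ to 3′ along the gene, and comes from RefSeq on build GRCm38.p6. Capitals mark matches to TGANTCA (the AP-1 site), TGACGTCA (the full CRE), TGACGT (the CRE core, which overlaps the full CRE), TGACATCA (a variant AP-1 site) or the CArG box, each searched on both strands.
Atf3 (chr1:191183284-191183583, minus strand): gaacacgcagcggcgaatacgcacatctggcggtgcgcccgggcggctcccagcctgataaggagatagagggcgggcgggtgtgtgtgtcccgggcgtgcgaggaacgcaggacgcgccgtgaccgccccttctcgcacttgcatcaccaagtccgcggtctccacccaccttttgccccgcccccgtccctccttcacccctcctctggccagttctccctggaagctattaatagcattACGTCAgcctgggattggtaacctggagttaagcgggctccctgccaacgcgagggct
Fos (chr12:85473640-85473939, plus strand): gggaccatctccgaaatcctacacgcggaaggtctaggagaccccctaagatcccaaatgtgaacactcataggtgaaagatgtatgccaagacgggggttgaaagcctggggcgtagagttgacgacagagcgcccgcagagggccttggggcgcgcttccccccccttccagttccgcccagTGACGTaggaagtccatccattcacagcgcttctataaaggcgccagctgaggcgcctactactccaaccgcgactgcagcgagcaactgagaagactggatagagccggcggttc
Batf (chr12:85686470-85686769, plus strand): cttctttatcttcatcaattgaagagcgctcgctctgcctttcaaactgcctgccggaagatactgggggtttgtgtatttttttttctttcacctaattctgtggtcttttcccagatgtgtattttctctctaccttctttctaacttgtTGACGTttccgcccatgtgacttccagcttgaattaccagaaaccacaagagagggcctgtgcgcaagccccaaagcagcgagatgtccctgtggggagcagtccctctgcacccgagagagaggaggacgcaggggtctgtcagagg
Jun (chr4:95052173-95052472, minus strand): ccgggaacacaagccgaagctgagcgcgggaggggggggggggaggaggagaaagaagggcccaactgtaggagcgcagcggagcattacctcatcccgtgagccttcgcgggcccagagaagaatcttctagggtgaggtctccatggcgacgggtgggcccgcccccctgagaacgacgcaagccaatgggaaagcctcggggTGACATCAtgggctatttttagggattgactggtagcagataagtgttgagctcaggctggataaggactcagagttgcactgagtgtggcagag
Batf3 (chr1:191098164-191098463, plus strand): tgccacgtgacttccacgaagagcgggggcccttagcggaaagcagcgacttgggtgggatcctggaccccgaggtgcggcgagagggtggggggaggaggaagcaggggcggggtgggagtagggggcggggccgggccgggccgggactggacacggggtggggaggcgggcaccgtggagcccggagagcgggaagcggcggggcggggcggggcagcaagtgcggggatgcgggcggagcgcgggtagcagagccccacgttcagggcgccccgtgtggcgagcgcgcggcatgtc
Windows were found for 9 of the 10 genes, and 4 of these held a marked motif. The CRE core TGACGT lay in the windows of Atf3, where it reads ACGTCA along the gene at 8 bases before the start, of Fos at 66 bases and of Batf at 98 bases before the start. It is present in 7.51% of all 32851 promoter windows of this length. TGACATCA lay in the Jun window, 45 bases before the start, and in 3.62% of all windows. TGANTCA, TGACGTCA and the CArG box had no match in the 9 windows, against 7.81%, 1.79% and 1.63% of all windows. Sites more than 250 bases before the start were not searched, so a gene without a match may still hold one there. In addition, TTCNNNGAA, the form of STAT sites, matched only the Batf3 window (8.3% of all windows), and AAATCAC, the core of GFI1 sites, matched only the Jund window (3.2% of all windows). The CRE core was thus found both in Atf3 and Fos, which differed between the libraries, and in Batf, which differed little.

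Values are the deposited intensities per spot, in arbitrary units, and log2 differences of the library labelled knock out minus the library labelled wild type after scaling to each array's 75th percentile (269 and 263 units in this order). A signal counted as detected above the array's median, which was 14.6 units for the knock out label and 14.2 units for the wild type label. With 1 array per label there is no spread between mice or cultures, no test was possible, and repeat spots give the variation within an array only. Signals of different probes are not comparable with each other. The Gfi1 probe itself read 18100 units in the library labelled knock out, against 4260 units in the library labelled wild type. Whether that probe lies inside the altered part of the gene is unknown here, so it neither checks nor overturns the labels, and every direction below rests on them. The commonly used control genes Actb, Gapdh and Hprt stood at -0.05, 0.04 ± 0.07 (SD, 8 probes) and -0.01. The sex-linked transcripts differed: Xist read 3.86 units in the library labelled knock out against 447 units in the other, and Eif2s3y read 3870 against 2.91 units. Genotype label and sex of the cells can therefore not be told apart.

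Across the 10 factors, 4 were higher by 2-fold or more under the knock out label and 0 were lower by that size. The 4 were Atf3, Fos, Batf3 and Jun. Over all 13411 detected genes the shares at this size were 3.62% higher and 1.52% lower. Of the 9 factors detected on both arrays, 7 were above 0 and 2 were below, with a median log2 difference of 0.72, while 41.6% of all detected genes were above 0, with a median of -0.05. At a threshold of 1.5-fold, 7 of the 10 factors were higher, Fosl1 by its bound, against 7.67% of all genes. At 3-fold, 3 were higher (Atf3, Fos and Batf3), against 1.6%. Fosl1 passed the detection floor in the library labelled knock out alone and is given as a bound. Among the factors detected on both arrays, Jun and Fosl2 lay on either side of the 2-fold mark, at 1.05 and 0.72.

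**Figure D1:**
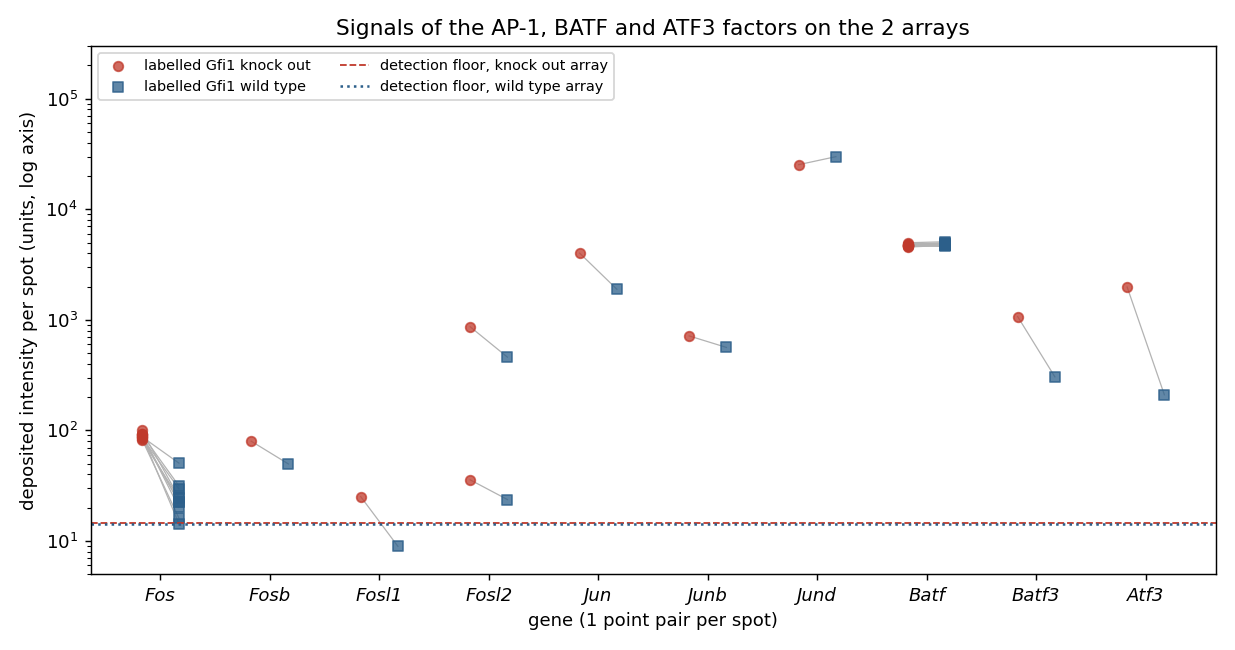
Deposited intensity per spot (log axis) of the 10 factors, circles for the library labelled Gfi1 knock out and squares for the library labelled Gfi1 wild type, with a grey line joining the 2 readings of a spot and dashed or dotted lines at the detection floors. Atf3 shows the steepest line (1980 against 210 units), the Batf spots are level, and Jund is the gene whose knock out reading lies clearly below the wild type one (25300 against 29900 units).

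The FOS family, the partners that need a JUN protein to bind DNA, was higher in the library labelled knock out at each of its 4 genes under all 5 ways of scaling the arrays, by unequal amounts. Fos, the immediate early gene that encodes c-FOS, was read by probe A_52_P262219 on 10 spots of each array. These gave 82.7 to 100 units (median 89) in the library labelled knock out and 14.3 to 50.6 units (median 23.6) in the library labelled wild type. Every spot of the first library was brighter than every spot of the second, so the 2 sets did not overlap. Among the 241 detected probes printed on 10 spots, 20.3% showed this complete separation in the same direction and 12.4% in the opposite one, and of the 49 of these probes under 100 units 16.3% showed it in the same direction. The Fos difference was 1.86 ± 0.52 on the log2 scale (SD over 10 spots of 1 probe), or 3.63-fold. Of the 4297 genes whose brighter array lay between 50 and 500 units, 6.26% were at least 2-fold higher. All 10 spots lay above 0 and 9 of them at 1 or more.

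The wild type readings of Fos lay close to the floor, and their spread was wide. The coefficient of variation over the 10 spots was 5.52% in the library labelled knock out and 40% in the library labelled wild type. The spot that stood apart gave 87.9 against 50.6 units, a difference of 0.76, and has a feature number above 50000. At this signal level spots in that range differed between the libraries more often. Of spots whose brighter reading lay between 50 and 500 units, 18.8% differed 2-fold either way above number 50000 and 5.79% at lower numbers. These shares compare the libraries and do not measure variation over repeat spots. Over the 7 Fos spots at lower numbers the difference was 1.86 ± 0.3 (SD), the same mean with a narrower spread. The 3 spots above 50000 gave 1.86 ± 0.98 (SD).

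**Figure D2:**
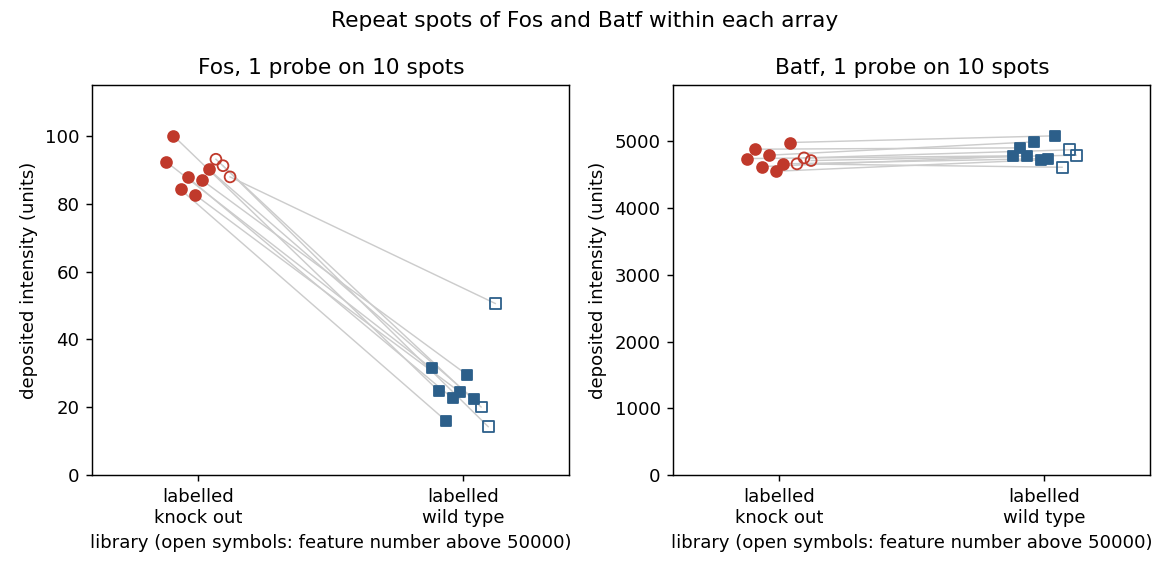
Intensities (linear axes from 0) of the single probe of Fos (left) and of Batf (right) on its 10 spots, with the library labelled knock out on the left of each panel, grey lines joining the readings of a spot and open symbols for feature numbers above 50000. The Fos spots of the 2 libraries do not overlap (82.7 to 100 against 14.3 to 50.6 units), whereas those of Batf overlap over nearly their whole range (4550 to 4980 against 4610 to 5080 units).

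The other FOS genes differed by less than 2-fold. Fosb, which like Fos carries a strong activation domain, read 79.9 units in the library labelled knock out and 49.7 units in the library labelled wild type on its single spot, a difference of 0.65. Fosl2, which encodes FRA-2, was read by 2 probes. The brighter gave 865 against 460 units (0.88) and the dimmer, on a spot numbered above 50000, gave 35.7 against 23.7 units (0.56). Their mean was 0.72 ± 0.23 (SD, 2 probes), and both probes ran in the same direction. Fosl1, which encodes FRA-1, read 25.2 against 8.94 units on 1 spot numbered above 50000. The wild type reading was under the floor, so on this spot the library labelled knock out was at least 1.74-fold higher, and no size beyond that bound can be given. Of spots whose brighter reading lay under 50 units, 33.4% differed 2-fold either way above number 50000 and 14.2% at lower numbers. The Fosl1 spot and the dimmer Fosl2 spot are both of this kind, so neither value is firm. The difference of Fos exceeded that of Fosb by 1.21 and that of Fosl2 by 1.14 on the log2 scale.

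The JUN family, which supplies the partner of FOS and BATF proteins, ran in both directions. Jun, which encodes the strong activator c-JUN, read 4010 units in the library labelled knock out and 1890 units in the library labelled wild type. This is a 2.07-fold difference (log2 1.05, 1 spot), just past the 2-fold mark, and 2.34% of the 4743 genes whose brighter array lay between 500 and 5000 units were at least 2-fold higher. Junb, a weaker activator that is also expressed in activated T cells, read 715 against 563 units, a difference of 0.31. Jund, the JUN gene known for steady expression in resting cells, read 25300 against 29900 units, a difference of -0.27 on a spot numbered above 50000. Spots over 5000 units in that range differed 2-fold in 0.978% of cases, against 1.25% at lower numbers. Jun thus differed from Jund by 1.33 and from Junb by 0.74 on the log2 scale. The median SD over repeat spots of a probe was 0.048 for probes of 500 to 5000 units and 0.0394 for brighter ones. These gaps are wider than that spot variation. Variation between probes of a gene, which Jun, Junb and Jund lack, and between cultures was not measured for them.

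Batf and Batf3, close relatives with similar zippers, did not differ alike. Batf, required for T helper 17 and follicular helper differentiation in mice, was read by probe A_51_P114616 on 10 spots. These gave 4550 to 4980 units (median 4725) in the library labelled knock out and 4610 to 5080 units (median 4785) in the library labelled wild type, and the 2 sets overlapped. The difference was -0.06 ± 0.02 (SD over 10 spots), with all 10 spots between -0.09 and -0.02. Of all genes 52.1% were as high or higher, and their median was -0.05, so Batf lay near the middle of all genes. It stood at 0 with cyclic loess scaling. Batf3, best known for its role in cross-presenting dendritic cells and also induced in activated T cells, read 1070 against 305 units on 1 spot. It was 3.43-fold higher (log2 1.78), ranked 170 of 13411 genes, and 1.01% of genes of 500 to 5000 units were as high. Batf3 exceeded Batf by 1.84 on the log2 scale.

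Atf3 had the largest difference of the 10 genes. Its single probe, A_52_P452689, read 1980 units in the library labelled knock out and 210 units in the library labelled wild type. This is a 9.22-fold difference (log2 3.2) and the 26th highest of 13411 genes, and 0.19% of the genes of 500 to 5000 units were as high. It exceeded that of Batf3 by 1.43 on the log2 scale. Atf3, Batf3 and Jun were each read on 1 spot with a feature number under 50000, so no spread over spots can be given for them.

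**Figure D3:**
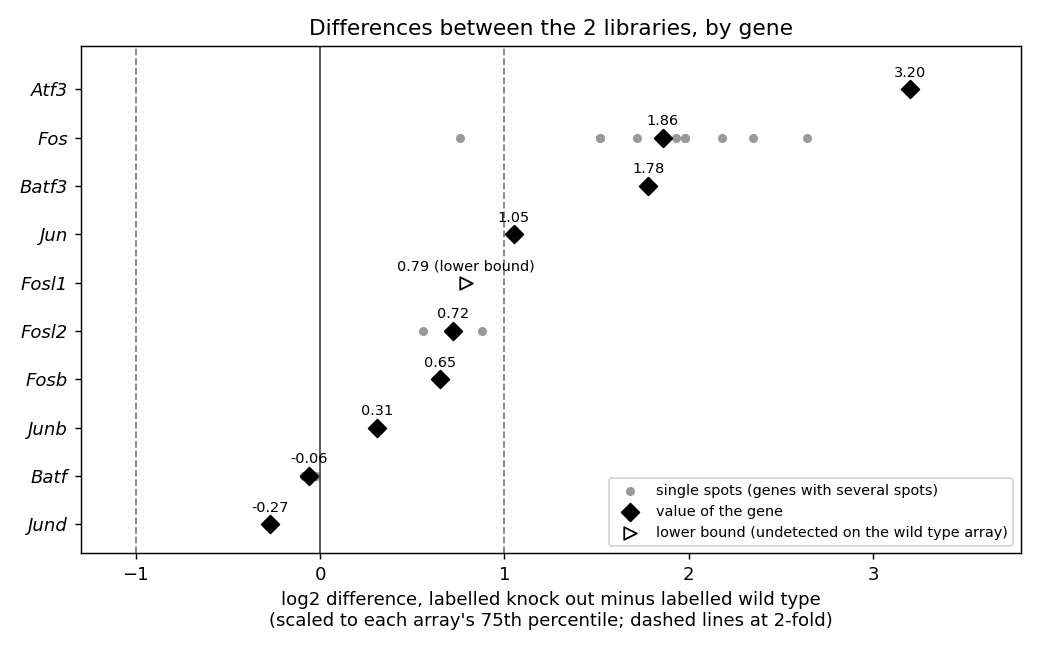
Log2 differences of the 10 factors (diamonds), library labelled knock out minus library labelled wild type, with single spots in grey for genes read on several spots, an open triangle for the lower bound of Fosl1 and dashed lines at 2-fold. The values run from -0.27 for Jund to 3.2 for Atf3, and the 10 Fos spots spread from 0.76 to 2.64.

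**Figure D4:**
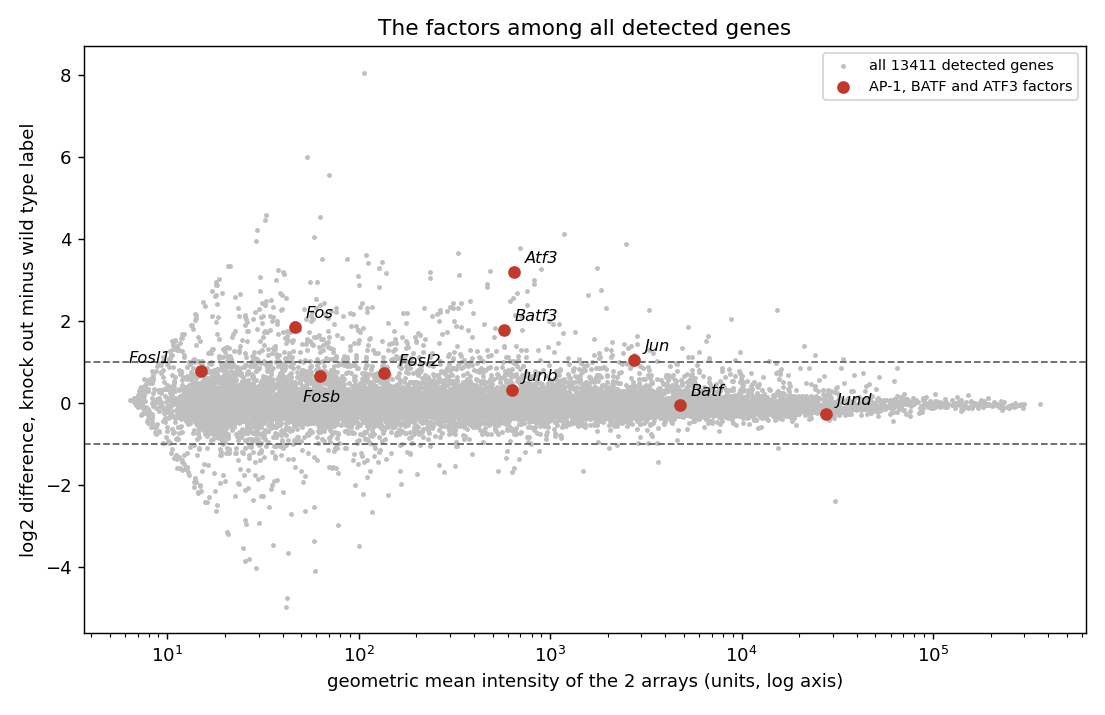
Log2 difference against mean intensity (log axis) of all 13411 detected genes in grey and of the 10 factors in red, with dashed lines at 2-fold. Atf3, Batf3, Fos and Jun lie above the upper dashed line at quite different intensities, and Batf and Jund lie within the band that holds most bright genes.

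Other basic leucine zipper genes gave a narrower picture. The counts of this and the following lists are set against the shares of 3.62% and 1.52% over all genes. Of 12 detected relatives (JDP2, BATF2, the MAF, CNC and BACH factors and NFIL3), 1 was at least 2-fold higher and 0 were lower, with a median of 0.27. Maf itself was under the floor on both arrays. The gene past 2-fold was Maff, which encodes a small MAF protein without an activation domain and read 74.8 against 21.9 units (1.74), and none was counted with the floor at the 75th percentile. Batf2, the third BATF gene, read 45.5 against 24.1 units (0.88). Jdp2, whose product pairs with JUN and represses AP-1 sites, read 121 against 120 units (-0.02). Of 17 detected ATF and CREB genes, 1 was at least 2-fold higher and 0 were lower, and the median was 0.05. This was Crem, a cyclic AMP response modulator with repressor isoforms, at 1.16 ± 0.1 (SD, 2 probes), 2570 against 1127 units. The 3 detected C/EBP genes lay between 0.15 and 0.4.

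The transcripts of the kinases and factors that act upstream of FOS and JUN showed few differences of that size. Of 22 detected MAP kinase pathway genes, 1 was at least 2-fold higher and 0 were lower, with a median of 0.08. It was Mapk13, which encodes p38δ and read 31 against 11.1 units, the second under the floor, so that it was at least 2.13-fold higher. It was no longer counted with the offset of 16 units, with probes detected on both arrays or with the floor at the 75th percentile, where the list had 0. Among the genes of this list detected on both arrays, the widest differences were Map3k8 at 0.65, Map2k1 at 0.64 and Map2k6 at -0.61. Map2k1 read 5110 against 3200 units, Map3k8 1200 against 750 and Map2k6 242 against 362. The JNK genes Mapk8 and Mapk9, whose products phosphorylate JUN, stood at 0.08 (35 against 29.8 units) and 0.11. Mapk3, which encodes ERK1, stood at 0.26. A further list holds SRF, its TCF and MRTF partners and MEF2 proteins, several of which act on Fos or Jun transcription. Of 8 detected genes, 7 were below 0 and 1 above (6 and 2 under 3 other scalings), with a median of -0.28 and 0 genes past 2-fold. The median stayed between -0.28 and -0.22 under the 5 scalings. Srf stood at -0.28 ± 0.11 and Elk1 at -0.4 ± 0.42 (SD, 2 probes each), so the Elk1 probes disagreed in size. Genes for JUN and FOS turnover and coactivators had a median of -0.06 over 11, or 0 with cyclic loess, with 0 genes past 2-fold. These values are of RNA and do not measure kinase activity.

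Partner genes and reported targets of AP-1 and BATF included genes past 2-fold in the upward direction alone. Of 7 detected NFAT and IRF genes, 2 were at least 2-fold higher and 0 lower, and both encode the IRF partners of BATF proteins. Irf8 read 15300 against 6330 units (1.24) and Irf4 read 9780 against 4650 units (1.04). The NFAT genes, several of which but not Nfat5 encode partners of FOS and JUN at cytokine promoters, lay between -0.16 (Nfatc3) and 0.5 (Nfat5). Nfatc2 stood at 0.37 ± 0.2 (SD, 2 probes). Of 22 detected genes reported as AP-1 or BATF targets in T cells, 12 were at least 2-fold higher and 0 lower, with a median of 1.08. The count was 5 with the floor at the 75th percentile, and 8 both without spots above number 50000 and with the offset of 16 units. The 8 largest were Ifng (4.11), Il12rb2 (3.09), Ccl3 (2.67), Ccl4 (2.31), Gzmb (2.27), Il3 (2.2), Il2 (2.14) and, as a lower bound, Il17a (1.5). Il2, the classical NFAT and AP-1 target, read 1400 against 310 units. Il2, Il3 and Ccl4 were each read on a spot numbered above 50000. Tbx21, which encodes T-bet and is not in this list, read 2360 against 289 units on such a spot (3). This list holds T helper 1, cytotoxic and other effector genes, and its counts are of genes that many other factors also control. Pdcd1, which encodes PD-1, was the lowest at -0.8.

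The remaining immediate early genes were divided. Of 24 detected, 1 was at least 2-fold higher and 3 were at least 2-fold lower, and the median was 0.26. Nr4a3, an orphan nuclear receptor gene, read 113 against 39.9 units (1.46). Egr3 read 8.04 against 158 units, a difference of at least 11.1-fold downward, on a spot numbered above 50000. Egr4 read 28.7 against 72.1 units (-1.36) and Arc, a gene better known from neurons, read 1580 against 3150 units (-1.03). The count of lower genes was 2 with cyclic loess, with no scaling, with probes detected on both arrays and without spots above number 50000, and 1 with the floor at the 75th percentile. At 1.5-fold 6 were higher and 3 lower, and 15 of the 24 were above 0. Of 10 detected stress genes known to be induced together with Atf3, 0 passed 2-fold, with a median of 0.28 and a range of -0.02 to 0.58. Of the 10, 9 were above 0 (10 with cyclic loess and with no scaling), against 41.6% of all genes. The highest were Asns at 0.58 and Trib3 at 0.57. Ddit3, which encodes the stress factor CHOP, stood at 0.24, and Atf4, an activator of Atf3 transcription, at 0.05.

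**Figure D5:**
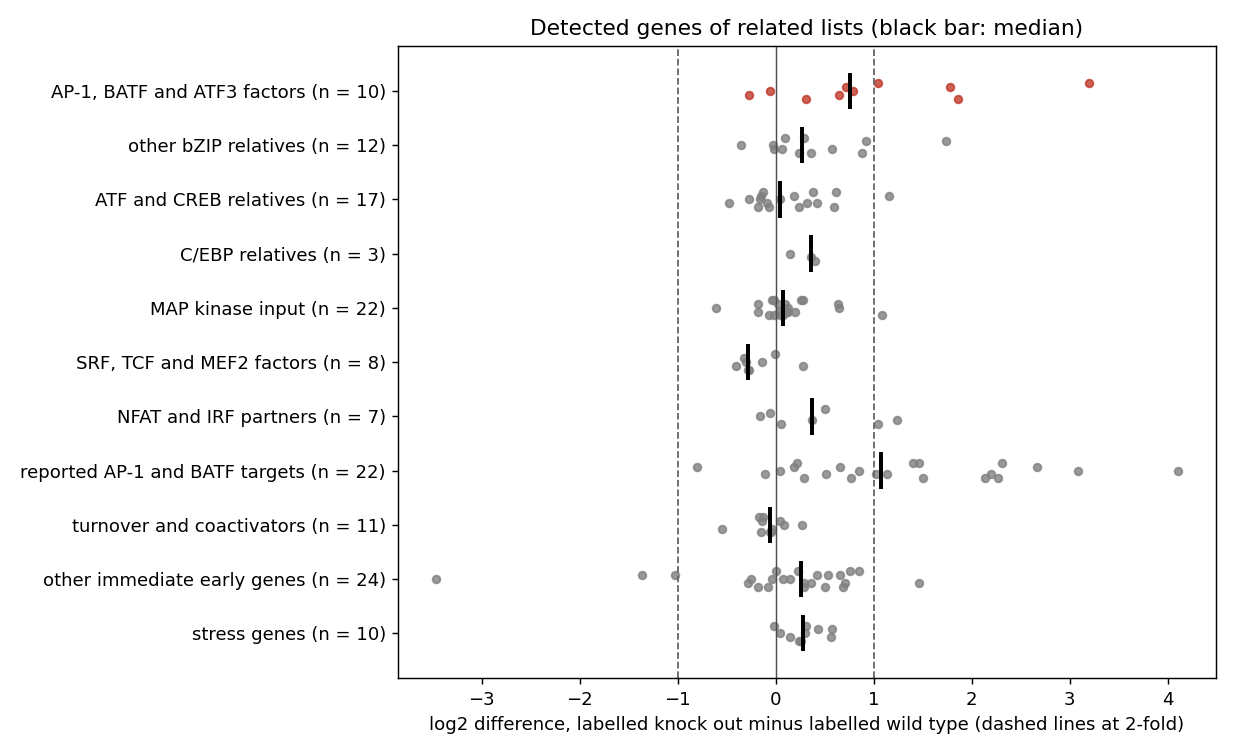
Log2 differences of the detected genes of each list (points; n in the labels), library labelled knock out minus library labelled wild type, with black bars at the medians and dashed lines at 2-fold. The medians are 0.76 for the 10 factors with Fosl1 at its bound, 1.08 for the reported targets and -0.28 for SRF, TCF and MEF2 factors, and the point farthest left is Egr3.

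Some markers of other cells were also higher in the library labelled knock out, and others were level or lower. A sum is carried by its brightest markers. It adds unscaled intensities of different probes, readings under the floor included, and so does not measure the share of a cell type. Of the list of CD4 T cell markers 12 were detected, all 12 on both arrays, with 3 above 0 and 1 of them at least 2-fold. Their signals summed to 265361 units in the library labelled knock out and 285984 units in the library labelled wild type. Most of them are shared with other T cells, so they do not check for CD4 cells in particular. Cd4 itself read 2146 against 2319 units (-0.14 ± 0.03, SD, 2 probes). The gene past 2-fold was Cd247, at 1.85 with an SD of 1.99 over 2 probes. CD8 T and NK cell markers summed to 2125 against 931 units, with 12 of 12 above 0, 7 of them at least 2-fold, and Cd8a, Klrk1, Klrb1c and Ncr1 undetected under the wild type label. B cell markers summed to 1277 against 558 units, 7 of 8 detected above 0 and 3 at least 2-fold, with Pax5 and Blk under the floor on both arrays. Dendritic cell markers, which bear on Batf3 and Irf8, summed to 14397 against 6950 units, of which Bst2 gave 13400 and 6350. Of 6 detected, 4 were above 0 and 2 at least 2-fold, with a median of 0.13. These 2 were Zbtb46, a factor of the dendritic lineage, at 54.5 against 23 units (1.21 ± 0.39, SD, 2 probes) and Bst2, also an interferon-stimulated gene, at 13400 against 6350 units. Ly75 stood at 0.12 and Cadm1 at -0.47. Flt3 read 28 against 11.8 units (0.14 ± 1.31, SD, 2 probes) and Siglech 875 against 522 units (0 ± 0.09, SD, 2 probes). In both differences, readings under the floor were raised to it. They are thus smaller than the gaps in units and do not show level signal. The defining markers Itgax, Xcr1, Clec9a and Cd209a were under the floor on both arrays. Myeloid markers summed to 15431 against 9037 units, of which Ctss gave 14600 and 8660, with 5 of 7 detected above 0 and 2 at least 2-fold. These 2 were Mpeg1, at 335 against 11.7 units and at least 23.1-fold higher, and Tyrobp, at 186 against 53.1 units (1.78). Csf1r stood at 0.01 ± 0.19 and Itgam at -0.07 ± 0.29 (SD, 3 probes each). Adgre1 read 11 against 15.7 units, the first under the floor. Lyz2, Cd14, Fcgr3 and Spi1 were under the floor on both arrays. The part of these cells in the differences of the factors was not tested. In such bulk RNA more cells of a kind and more RNA per cell cannot be told apart.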

How the data were processed

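Each genotype label had 1 single-colour (Cy3) mouse array, prepared from 100 ng of total RNA. Agilent Feature Extraction 11.5.1.1 is named in the submitters' processing notes. The authors deposited an intensity per spot under a heading for raw values. Their background correction is unstated. A second deposited table of intensity values, a near-constant multiple of the first (median 2.26 for the knock out label and 2.27 for the wild type label), served as an alternative.

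Signals were put on the log2 scale, averaged over each probe's spots and reduced by each array's 75th percentile over 55681 probes. Probes under the floor on both arrays were dropped, a single undetected side took the floor's value, and a gene was the mean of its remaining probes. Of 59305 spots, 31465 carry a gene symbol in the platform annotation and 27840 were left unnamed. Symbols were updated through a RefSeq table of GRCm38.p6 (29036 spots by accession, 2075 by symbol, 349 by synonym, 5 unchanged). The spread within arrays came from 399 probes on 10 spots.

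With 1 array per label nothing was tested, and genes were counted at a log2 difference of 1. The 10 factors, the gene lists and the 15 alternatives were chosen with earlier results of these data known, so no list is independent support. Named were all 10 factors, the genes of each related list past 2-fold (at most the 8 largest), and Gfi1, Tbx21, Irf4, Irf8, Batf2, Jdp2, Maf, Xist, Eif2s3y, Ifng, Actb, Gapdh and Hprt, whatever their values. Chosen after their values were seen were Mapk3, Mapk8, Mapk9, Map2k1, Map2k6, Map3k8, Srf, Elk1, Nfatc3, Nfat5, Pdcd1, Ddit3, Atf4, Asns and Trib3. So were the markers Cd4, Cd247, Zbtb46, Bst2, Flt3, Ly75, Siglech, Cadm1, Ctss, Mpeg1, Tyrobp, Csf1r, Itgam and Adgre1. The steps were tested on simulated data. Tools were statsmodels 0.14.6, numpy 2.4.6, pandas 2.3.3, matplotlib 3.10.9 and Python 3.11.15.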

Additional observations from a re-analysis of the deposited data

How the results depend on the processing

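Of the 10 factors, Atf3, Fos, Batf3 and Jun stayed at a log2 difference of 1 or more under every scaling, floor, probe and offset alternative in which they were detected, with lowest values of 2.88, 1.34, 1.73 and 1.05. Fos was not detected with a floor at the 75th percentile. Batf lay between -0.07 and 0 and Jund between -0.28 and -0.22. The bound of Fosl1 ran from 0.42 with an offset of 16 units to 1.46 with a floor at the 25th percentile. The median of the factors was 0.89 with a floor at the 25th percentile, 0.88 over 7 with a floor at the 75th, 0.84 with the brightest probe, 0.96 over 8 without spots above number 50000 and 0.56 with the offset. With the floor at the 75th percentile 5 of 7 detected factors were above 0. At a 1.5-fold threshold 7 factors were higher (7.67% of all genes), and at 3-fold 3 (1.6%). Over all related lists 18 genes were at least 2-fold higher, 32 at 1.5-fold, 8 at 3-fold and 8 with the floor at the 75th percentile, where fewer genes are detected. Over all genes, the count at 2-fold was 485 higher and 204 lower, 980 and 634 with the floor at the 25th percentile, 136 and 20 at the 75th, 374 and 125 with probes detected on both arrays, 351 and 105 without spots above 50000, and 338 and 117 with the offset. The other values, of single genes and lists, moved by more than the spread over repeat spots, or more than 1.5 times for counts, in 36 of 424 cases. No paired analysis was possible because each label has 1 array. Low signal over the floor limits Fos, Fosb and Fosl1, and the number of arrays limits every value.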

Other observations

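The genes beside Atf3, Batf3, Fos and Jun in genome order (RefSeq, GRCm38.p6, protein-coding genes) differed less than these 4 factors where they were detected. Batf3 and Atf3 lie on chromosome 1 with 1 gene between them, Fam71a, which was not detected on either array. The genes on their outer sides, Nsl1 next to Batf3 and Nenf next to Atf3, stood at -0.01 ± 0.17 (SD, 2 probes) and 0.35. Fos and Batf lie on chromosome 12 on either side of Jdp2, which read 121 units in the library labelled knock out and 120 units in the library labelled wild type. Tmed10, on the other side of Fos, read 12161 against 11899 units. Their differences were -0.02 and 0, against 1.86 for Fos between them. The neighbours of Jun were Mysm1 at 0.04 and Fggy at 0.72 ± 0.14 (SD, 4 probes, 233 against 139 units). Those of Jund and Junb on chromosome 8 were Lsm4 at -0.12, Prdx2 at -0.23 and Hook2 at 0.23 ± 0.01 (SD, 2 probes), and Iqcn was not detected. Beside the other FOS genes, Rtn2 and Ercc1 next to Fosb stood at -0.31 and -0.12, and Babam2 and Plb1 next to Fosl2 at 0.2 ± 0.01 (SD, 2 probes) and -0.68. Next to Fosl1, AI837181 stood at -0.03, and Ccdc85b read 14.3 against 27.4 units, the first under the floor and at least 1.92-fold lower. Ccdc85b and Plb1 thus ran opposite to the FOS genes they flank, at dim signals.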
